A study of Mus musculus with 12 samples.

Results

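MiR-191 (mmu-miR-191) and miR-425 (mmu-miR-425) are the main arms of 2 neighbouring hairpins, and they are 2 of the 469 mature miRNAs with at least 1 count in the miRNA-Seq data of mouse frontal cortex (FCx) and hippocampus (HP). They were taken by name from the count files, without their star arms, and miR-191 was chosen by its CPM in the indexed libraries, whose order was not the same in FCx and in HP (index 7). The levels of miR-191 in these libraries are therefore given as a description, with no p-value. MiR-425, the star arms miR-191* and miR-425*, and the first bases of the reads were not used for that choice, and these were tested where the design allowed it.

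Tissue came from untreated adult male C57BL/6J mice at 8 weeks of age, singly housed for 1 week. The tissue of 3 mice was combined into 1 pool for FCx and 1 pool for HP before RNA was extracted. Each pool was made into 3 libraries that differ in the index, a tag at the end of the 5′ adaptor that is ligated to the first base of the miRNA (UUAGGC in index 3, CAGAUC in index 7, GGCUAC in index 11, the last base being C in all). Each library was sequenced both alone in a lane (the individual lane) and together with the others of its region (the pooled lane), and both runs were summed, so that n = 3 libraries in FCx and 3 in HP. P-values therefore measure the technical spread between libraries of 1 pool and no difference between animals. The index, the library and the order of preparation cannot be told apart within a region.

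The libraries with index 3, 7 and 11 held 391410, 1461732 and 652449 counts on miRNAs in FCx and 3206221, 4956117 and 4053518 in HP, so FCx values rest on fewer reads. The level of a miRNA is its CPM, meaning its number of reads for every 1000000 reads counted on miRNAs in that library. Reads carried no molecular identifiers, and the 95% intervals of CPM, shares and ratios of counts cover counting error only. Those of log2 ratios from a fit include the spread between libraries. In the fits that held the index, this spread was taken over all miRNAs together and not from each miRNA alone. Where no read was counted, up to 3 counts were allowed for, or 7.66, 2.05 and 4.60 CPM in FCx and to 0.936, 0.605 and 0.740 CPM in HP. MiR-9, a miRNA typical of brain tissue, was at 17202 to 57807 CPM in all 6 libraries. No marker that separates FCx from HP was tested.

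A miRNA hairpin is cut from a primary transcript by Drosha and then by Dicer, and an Argonaute protein keeps 1 strand of the duplex, which pairs with target mRNAs mainly through bases 2 to 8, the seed. The other strand, here named the star arm, is usually degraded and is found at lower levels. MiR-191 and miR-425 are cut from neighbouring hairpins and are made in many tissues, and both are commonly used as reference miRNAs to normalize other measurements.

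The mature sequences from RefSeq are shown because the members share a cluster and no seed. Capitals mark the seed.
miR-191: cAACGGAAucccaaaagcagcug
miR-191*: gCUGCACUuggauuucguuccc
miR-425: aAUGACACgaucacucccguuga
miR-425*: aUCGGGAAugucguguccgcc

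Among the 1679 mature mouse miRNAs in the RefSeq table, the seed of miR-191 and of both star arms was held by that arm alone, and the seed of miR-425 was shared with miR-489-3p. The nearest other mature miRNA differed from miR-191 at 7 positions, from miR-425 at 7, from miR-191* at 5 and from miR-425* at 6. These distances are larger than the 2 mismatches that the counting allowed on either side, so that full-length reads of these arms were not shared with another miRNA of the table.

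The hairpins are shown with both arms in capitals, since the reads described below fell on these arms.
Mir191: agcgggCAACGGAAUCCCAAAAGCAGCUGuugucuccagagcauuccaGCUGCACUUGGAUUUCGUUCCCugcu
Mir425: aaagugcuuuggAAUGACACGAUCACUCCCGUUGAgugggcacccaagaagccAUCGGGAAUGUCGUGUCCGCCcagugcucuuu

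In NCBIM37, the build of the deposited alignments, Mir191 lies at chr9:108470650-108470723 and Mir425 at chr9:108471108-108471192, both on the plus strand with 384 bases between them. Each hairpin had 1 exact match in the genome. In the GENCODE vM1 annotation both lie between protein-coding genes, 976 bases from the start of Ndufaf3 on the minus strand and, for Mir425, 1030 bases before the start of Dalrd3 on the plus strand. An annotated miRNA gene on the minus strand, CT010508.1, covers all 74 bases of Mir191. Of the genome alignments at the cluster, 12718 lay on the mature arms, 0 lay on a hairpin outside the arms, 0 lay on the minus strand of either hairpin, and 2 lay within 200 bases of the hairpins or between them.

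MiR-191 was the abundant member. In FCx it was at 687, 183 and 475 CPM with indexes 3, 7 and 11 (269, 268 and 310 counts), a mean of 449 ± 253 CPM (SD, n = 3 libraries). In HP it was at 436, 1611 and 438 CPM (1398, 7983 and 1774 counts), a mean of 828 ± 678 CPM. Index 7 was thus the lowest library of FCx and the highest of HP, and the lowest and the highest of all 6 libraries both carried index 7. The libraries of the regions overlapped, since 2 HP libraries lay between the FCx values.

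With index 7, HP held 8.79 times the FCx level of miR-191 (95% interval 7.78 to 9.96). With index 3 the ratio of HP to FCx was 0.634 (0.556 to 0.726), and with index 11 it was 0.921 (0.816 to 1.04). Scaled to all genome alignments of a library, alignments on the arm had ratios of 1.06, 10.8 and 1.74 with indexes 3, 7 and 11. The direction with indexes 3 and 11 thus depends on the scaling. Within FCx, the level with index 7 was 0.267 times that with index 3 and 0.386 times that with index 11. Within HP it was 3.69 times that with index 3 and 3.68 times that with index 11. In FCx the 11-over-3 ratio was 0.691 (0.585 to 0.817) and in HP it was 1.00 (0.935 to 1.08).

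The runs of a library gave like values of miR-191 in 5 of the 6 libraries. With index 7, the individual and the pooled lane gave 187 and 179 CPM in FCx and 1550 and 1719 CPM in HP. With index 11 they gave 463 and 515 CPM in FCx and 443 and 422 CPM in HP. With index 3 they gave 698 and 663 CPM in FCx, and 342 and 600 CPM in HP. That last library stood apart between its runs also over the 139 abundant miRNAs (mean of 100 CPM or more), whose median size of the log2 ratio between runs was 0.46 there and 0.08 to 0.19 in the other libraries. The order of index 7 against the other indexes was the same in the individual and in the pooled lanes.

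**Figure D1:**
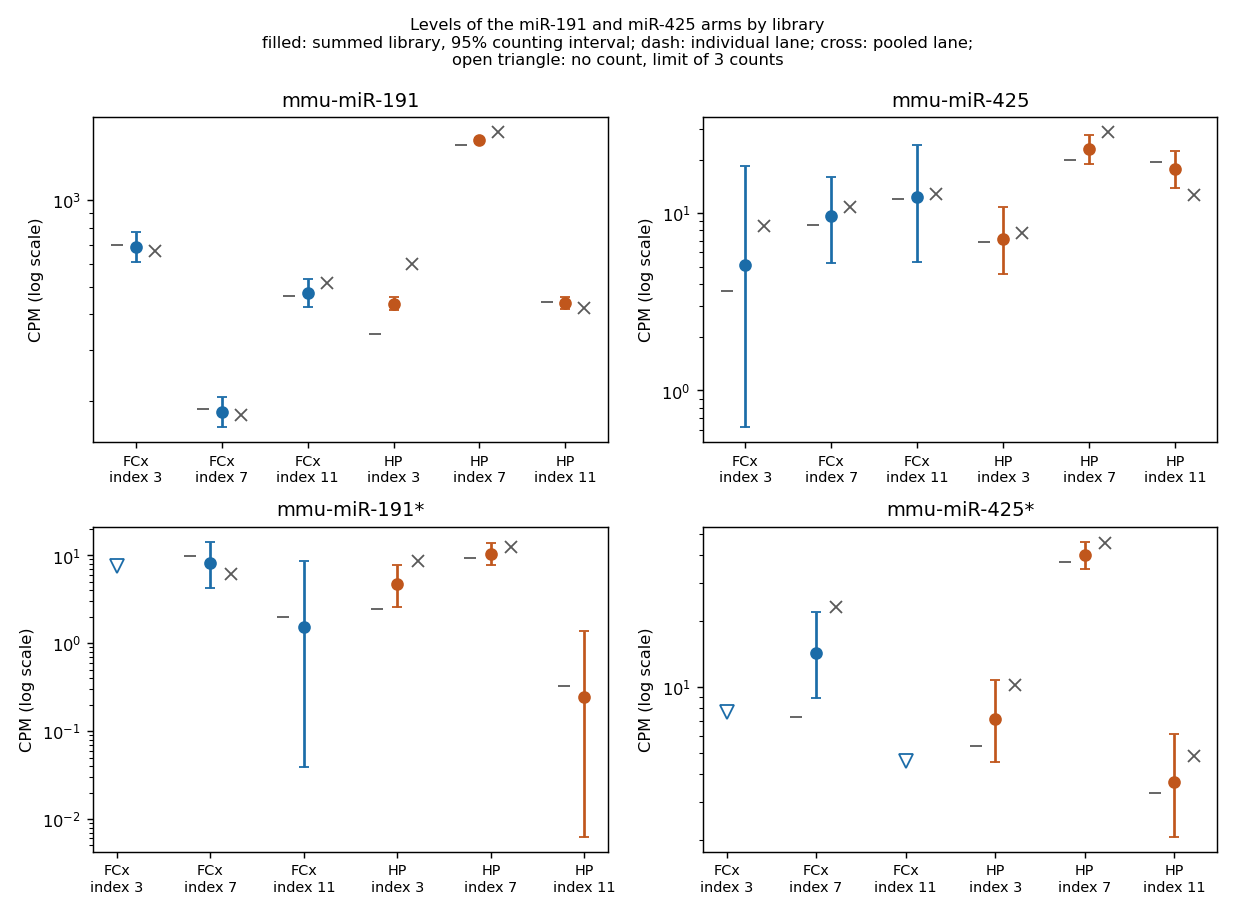
CPM of the members and their star arms (log scale) by region and index, with the summed library as a filled point with its 95% counting interval, the individual lane as a dash, the pooled lane as a cross and the 3-count limit of a library without counts as an open triangle. MiR-191 was lowest at 183 CPM and highest at 1611 CPM, both with index 7, while miR-425 stayed between 5.11 and 23 CPM.

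Such an order of the indexes was uncommon among abundant miRNAs. Index 7 was the lowest in 1 region and the highest in the other for 7 of the 139 abundant miRNAs (5.04%), while FCx and HP had the same highest index for 104 (74.8%). Besides miR-191 these were miR-129-3p, miR-146b, miR-323-3p, miR-341, miR-485* and miR-672, and all 7 were lowest in FCx and highest in HP. The shift of miR-191 was the widest of the 7, since the others moved between regions by 0.65 to 2.63 on the log2 scale, taken as HP over FCx with index 7 minus the mean of the other indexes, against 3.51 for miR-191. Over all 139 the median of this shift was 0.47, and only miR-382* exceeded miR-191, at 4.92. The order of miR-191 was what chose it, so its place in this list is a description. The number of such miRNAs was 10 of 257 with a mean of at least 10 CPM and 0 of the 54 with at least 1000 CPM, a class that miR-191 itself did not reach.

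MiR-425 was a low-abundance member. In FCx it was at 5.11, 9.58 and 12.3 CPM with indexes 3, 7 and 11 (2, 14 and 8 counts), a mean of 8.98 ± 3.61 CPM (SD, n = 3 libraries). In HP it was at 7.17, 23 and 17.8 CPM (23, 114 and 72 counts), a mean of 15.98 ± 8.06 CPM. Within each index the HP library was higher, yet the groups overlapped, because HP with index 3 lay below FCx with indexes 7 and 11.

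The ratio of HP to FCx of miR-425 was 2.40 with index 7 (1.37 to 4.53), 1.40 with index 3 (0.347 to 12.3) and 1.45 with index 11 (0.697 to 3.48). Only the interval of index 7 lay above 1. Index 7 gave less miR-425 than index 11 in FCx, 0.781 times (0.306 to 2.15), and more in HP, 1.29 times (0.956 to 1.76), and both intervals include 1. The FCx libraries held 24 counts of miR-425 in all, which leaves its intervals there wide. By these intervals, the index 7 ratio of HP to FCx was at most 4.53. The level with index 7 over that with index 3 in FCx, 1.87, was at least 0.431. These limits cover counting error only. The values of miR-191 lay beyond them, but they are the values that chose it, so this is a description and no test.

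**Figure D2:**
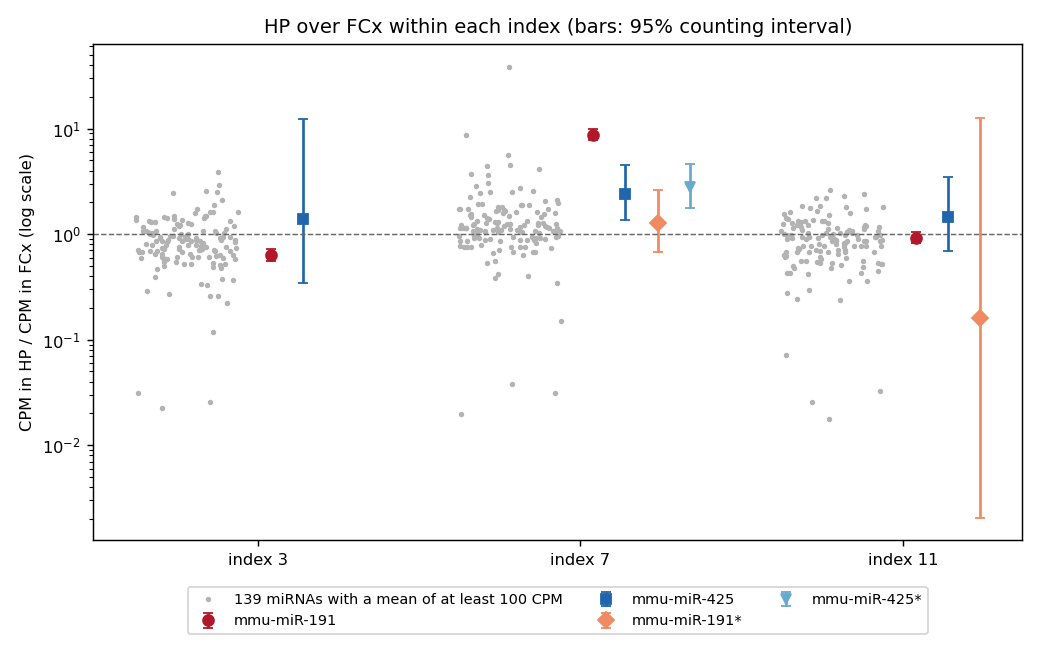
CPM in HP over CPM in FCx (log scale) within each index, for the 139 abundant miRNAs as grey points and for the cluster's arms as coloured points with 95% counting intervals, where both libraries had counts. MiR-191 stood at 8.79 with index 7 and at 0.634 and 0.921 with indexes 3 and 11, while miR-425 stood between 1.40 and 2.40.

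The comparison of the regions asks which miRNAs differ between FCx and HP. It was fitted with edgeR's quasi-likelihood test over the 431 miRNAs that reached 2 counts in FCx or in HP, with TMM normalization and p-values adjusted by Benjamini and Hochberg. At an adjusted p under 0.05, 2 of the 431 (0.464%) were called, both higher in FCx, and 17 had an unadjusted p under 0.05. MiR-425 was not among the calls, with a log2 ratio of HP over FCx of 1.14 (standard error 0.94, 95% interval -0.94 to 3.23, adjusted p = 0.992). MiR-191 had a log2 ratio of 1.33 (standard error 0.77, interval -0.38 to 3.04). The levels of miR-191 chose it, so this interval is a description and no test. The ratio of miR-191 rests on the index 7 libraries, since it was 0.40 without that library of HP and 0.66 without that of FCx. The median over all miRNAs was 0.37 with TMM normalization and -0.03 with library totals, with which miR-425 was at 0.81 and miR-191 at 0.89. In bulk tissue, fewer cells that hold a miRNA and less of it per cell cannot be told apart.

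Libraries with the same index deviated together across regions, so the index was also fitted as a block. The blocked fit called 77 of 431 (17.9%), of which 55 were higher in HP (12.8% of those tested) and 22 in FCx. This balance turned around with library totals in place of TMM, where 20 were higher in HP and 36 in FCx. DESeq2's test with the same block gave 14 higher in HP and 27 in FCx. MiR-425 again did not pass, with a log2 ratio of HP over FCx of 1.15 (standard error 0.45, adjusted p = 0.0538, and 0.231 with library totals in place of TMM). MiR-425* passed in this fit, as described below. A block assumes the same difference of HP and FCx in every index, which the values of miR-191 above did not show. The spread in this fit was taken over all miRNAs together (862 degrees of freedom). Its standard errors and p-values therefore do not measure the spread of a single miRNA.

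The indexes were compared over the same libraries in a model that also held the region. With the same test and threshold, 264 of 431 (61.3%) were called for a difference between indexes. MiR-425 was one of them, with a log2 ratio of 1.59 for index 7 over index 3 and of 1.76 for index 11 over index 3 (adjusted p = 0.00596, edgeR). It was lowest with index 3 in FCx, from 2 counts, and in HP. This call was lost without the HP library with index 3 (adjusted p = 0.212), with the pooled lanes only (0.0538) and with DESeq2's test (0.0507). Since 61.3% of all miRNAs were called, a call of this kind was the common case. Here too the spread was taken over all miRNAs together and not from miR-425 alone.

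The ratio of miR-191 to miR-425 counts varied as much within a region as between regions. It was 135 (36.7 to 493), 19.1 (11.3 to 32.6) and 38.8 (19.5 to 77.1) with indexes 3, 7 and 11 in FCx. In HP it was 60.8 (40.4 to 91.5), 70.0 (58.2 to 84.2) and 24.6 (19.5 to 31.2). FCx with index 7 was the lowest of the 6 and FCx with index 3, which rests on 2 counts of miR-425, the highest. Expressed as its share of the counts of both members, miR-425 made up 2.74% ± 2.12 in FCx and 2.31% ± 1.38 in HP (SD, n = 3 libraries), and the regions overlapped. This ratio holds the counts of miR-191 by which it was chosen, so its spread between libraries is a description and no test.

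The star arms did not follow the index order of miR-191 in FCx. MiR-191* had 0, 12 and 1 counts in FCx with indexes 3, 7 and 11, at 0, 8.21 and 1.53 CPM. In HP it had 15, 52 and 1 counts, at 4.68, 10.5 and 0.247 CPM. Index 7 was the highest library of miR-191* in FCx and in HP, although index 7 was the lowest of miR-191 in FCx. The order of miR-191* in FCx rests on 13 counts, and the library with index 3 allows up to 7.66 CPM. With index 7, HP over FCx was 1.28 for miR-191* (0.673 to 2.63), beside the 8.79 of miR-191, which chose it.

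MiR-425* had 0, 21 and 0 counts in FCx, at 0, 14.4 and 0 CPM. In HP it had 23, 199 and 15 counts, at 7.17, 40.2 and 3.70 CPM. It was highest with index 7 in both regions, and FCx with index 7 lay above 2 of the HP libraries, so the regions overlapped. With index 7, HP over FCx was 2.79 (1.78 to 4.62), near the 2.40 of miR-425. In each library with index 7, with both runs summed, miR-425* was more abundant than miR-425 itself. In FCx this order came from the pooled lane, with 15 against 7 counts. The individual lane there had 6 against 7 counts.

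Between the regions, neither star arm was called by edgeR's quasi-likelihood test without the block, with log2 ratios of HP over FCx of 0.45 for miR-191* and 1.60 for miR-425* (adjusted p = 0.992 for both). With the index as a block, miR-425* rose in HP by 1.79 on the log2 scale (standard error 0.52, adjusted p = 0.00599, and 0.00852 with library totals). DESeq2's test with the same block gave 0.109. With indexes 3 and 11 FCx had no count of miR-425*, and HP over FCx had lower bounds of 0.936 and 0.805, both under 1. Only index 7 gave a ratio, with a log2 of 1.48. MiR-191* had 0.49 in the blocked fit (adjusted p = 0.745). Between the indexes both star arms were called by the quasi-likelihood test, as were 61.3% of all miRNAs, with log2 ratios for index 7 over index 3 of 1.45 for miR-191* (adjusted p = 3.82e-04) and 2.70 for miR-425* (2.66e-09). For miR-191* this call was lost without either index 7 library, with an adjusted p of 0.136 without that of FCx and 0.168 without that of HP, and with DESeq2's test (0.0580).

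The share of the star arm within a hairpin compares arms cut from the same precursor. For miR-191 the star share was 0%, 4.29% and 0.322% in FCx with indexes 3, 7 and 11, where 0 of 269 counts allow up to 1.41% by Wilson's method. In HP it was 1.06%, 0.647% and 0.0563%. FCx with index 7 was the highest of the 6. The share holds the count of miR-191, which was low in that library and by which miR-191 was chosen, so it is given as a description and without a p. The mean was 1.54% ± 2.39 in FCx and 0.588% ± 0.505 in HP (SD, n = 3 libraries). Without that library the FCx mean was 0.161%, and the difference turned around.

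For miR-425 the star share was 0% of 2 counts, 60.0% of 35 and 0% of 8 in FCx, and 50%, 63.6% and 17.2% in HP. The libraries with index 7 gave nearly the same share in FCx (43.6% to 74.4%) and in HP (58.1% to 68.7%). In that FCx library, miR-425* and miR-425 had 6 and 7 counts in the individual lane and 15 and 7 in the pooled lane. The mean was 20% ± 34.6 in FCx and 43.6% ± 23.8 in HP (exact permutation test, two-sided, n = 3 libraries each, p = 0.3, where 3 against 3 cannot give a p under 0.1). Within each index the HP library had the higher share (exact paired permutation test over 3 indexes, p = 0.25, the smallest it can give). In the 4 libraries with at least 35 counts on the hairpin of miR-425, its star arm thus made up 17.2% to 63.6%. This range leaves out FCx with indexes 3 and 11, at 0% of 2 and of 8 counts. The star arm of miR-191 made up at most 4.29% in any library.

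The genome alignments give the first base of each read, which is the base the indexed adaptor was ligated to and which sets the seed. MiR-191 started at the annotated base in 95.4% of 12161 alignments and 1 base downstream in 4.36%. MiR-425 started at the annotated base in 97.4% of 232 alignments. Both star arms were less uniform. MiR-191* started at the annotated base in 33.8% of 80 alignments and 1 base downstream in 61.3%. MiR-425* started at the annotated base in 56.7% of 245 alignments and 1 base upstream in 36.3%.

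The forms with another first base are shown with the seed in capitals, because a shift of 1 base changes the seed.
miR-191, 1 base downstream: aACGGAAUcccaaaagcagcug
miR-191*, 1 base downstream: cUGCACUUggauuucguucccu
miR-425*, 1 base upstream: cAUCGGGAaugucguguccgcc

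**Figure D3:**
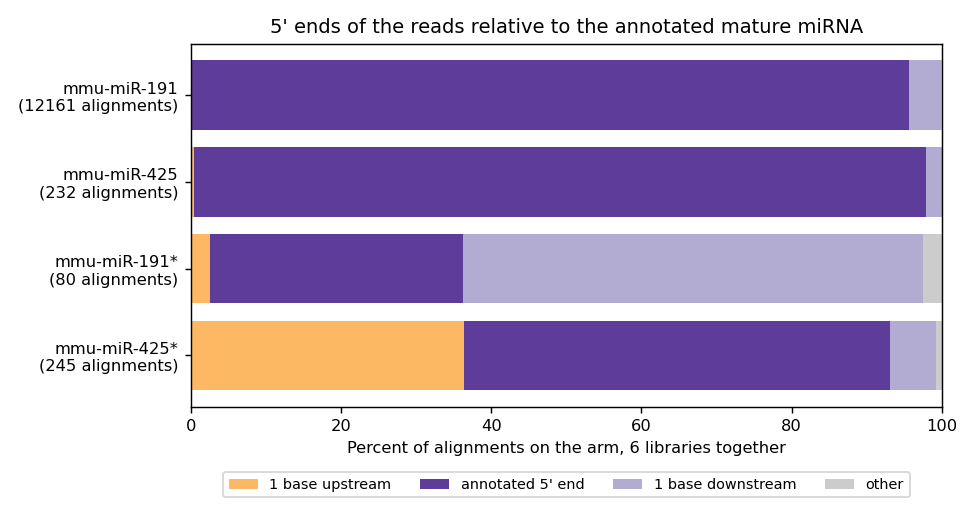
Percent of the alignments on each arm that start at the annotated 5′ end, 1 base upstream, 1 base downstream or elsewhere, over the 6 libraries together. MiR-191 and miR-425 started at the annotated base in 95.4% and 97.4%, and miR-191* and miR-425* in 33.8% and 56.7%.

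Between the libraries, miR-191 started at the annotated base in 92.1%, 94.3% and 95.6% of the alignments in FCx with indexes 3, 7 and 11, and in 94.8%, 95.2% and 97.0% in HP. The regions overlapped, with a mean of 94.0% ± 1.73 in FCx and 95.7% ± 1.18 in HP (SD, n = 3 libraries, exact permutation test, two-sided, p = 0.3). Within each index HP was higher, in 3 of 3 pairs (exact paired permutation test over 3 indexes, p = 0.25, the smallest it can give). The form 1 base downstream made up 7.12%, 5.72% and 4.43% in FCx and 4.41%, 4.58% and 2.70% in HP (exact permutation test, n = 3 libraries each, p = 0.2), and HP was lower in 3 of 3 pairs (exact paired permutation test, p = 0.25). With the pooled lanes only, the differences of both means turned around. For miR-425 the annotated base was at 100% in the 3 FCx libraries, which hold 23 alignments in all, and at 100%, 98.2% and 94.4% in HP (exact permutation test, n = 3 libraries each, p = 0.4).

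Both forms of miR-191 are parts of the reads whose order chose it, and their levels are described here without a test. Counted over alignments of 21 to 23 nt, the form with the annotated base was 8.96 times as high in HP as in FCx with index 7 (7.89 to 10.2). The form 1 base downstream was 7.04 times as high (4.21 to 12.7). With indexes 3 and 11 this form had ratios of 0.398 (0.235 to 0.705) and 0.607 (0.324 to 1.22).

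The alignment files also hold shorter reads on the miR-191 arm. The counts exceeded the alignments of 18 nt or more by 2 to 47, and in 5 of the 6 libraries they were 6 to 53 below all alignments, and whether any of the shorter reads were counted cannot be told from these totals. Alignments of 17 nt numbered 0, 28 and 9 in FCx with indexes 3, 7 and 11 and 31, 87 and 46 in HP. Of these 201 alignments, 192 (95.5%) began at the annotated base and so cover the following bases.
miR-191, first 17 bases: caacggaaucccaaaag

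Per 1000000 miRNA counts, the 17 nt alignments were at 0, 19.2 and 13.8 in FCx and at 9.67, 17.6 and 11.3 in HP. Index 7 was the highest library in both regions, and in FCx index 3 had none, which allows up to 7.66. The ratio of HP to FCx of the 17 nt alignments with index 7 was 0.916 (0.593 to 1.46), whereas that of the alignments of 21 to 23 nt was 8.87 (7.84 to 10.1). With index 11 the ratios were 0.823 (0.398 to 1.91) and 0.923 (0.817 to 1.05). The full-length ratio with index 7 is the value that chose miR-191, so its distance from the 17 nt ratio is a description and no test.

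**Figure D4:**
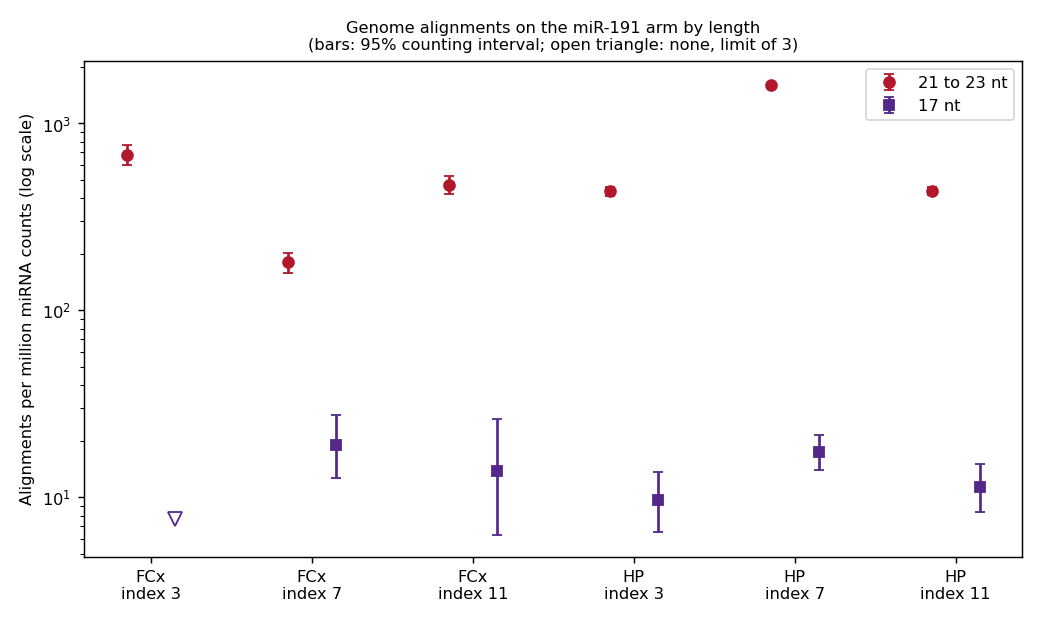
Genome alignments on the miR-191 arm per 1000000 miRNA counts (log scale) in each library, for lengths of 21 to 23 nt and of 17 nt, with 95% counting intervals and the 3-count limit as an open triangle. With index 7 the 17 nt alignments were at 19.2 in FCx and 17.6 in HP, and the 21 to 23 nt alignments at 181 in FCx and 1601 in HP.

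A read of 17 nt names its source less surely than a full-length read. The first 17 bases of miR-191 had 2 exact matches in NCBIM37 and 625 sites with 2 mismatches, while its first 22 bases had 1 exact match and 1 further site with 2 mismatches. Reads of 17 nt from another site cannot be told apart here from shortened miR-191. In all 6 libraries the alignments on the arm were of 16, 17 or 21 to 23 nt, with none between 17 and 21 nt. The cause of this gap was not tested. No alignment was longer than 23 nt in any library. Of those on the miR-191 arm, annotated at 23 nt, 88.2% to 99.3% were of 22 nt. Whether the length of an alignment is that of the RNA was not tested. As a share of the alignments on the arm, 17 nt reads made up 0%, 9.43% and 2.85% in FCx, while the HP libraries held 2.17%, 1.08% and 2.53%. Their mean was 4.09% ± 4.84 in FCx and 1.93% ± 0.754 in HP (SD, n = 3 libraries), and without FCx index 7 the FCx mean was 1.42%, below that of HP. These shares hold the full-length reads that chose miR-191, and no p is given. The share of 17 nt among all genome alignments was 3.01% to 5.72% in FCx and 2.34% to 7.53% in HP, and 68.3% to 90.3% of all alignments were of 22 nt.

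The same 2 length classes were set side by side for the 59 mature miRNAs that had at least 5 alignments of each class in both index 7 libraries and a mean of at least 100 in 1000000 miRNA counts. For miR-191 the log2 ratio of HP over FCx was higher by 3.29 in the full-length than in the 17 nt alignments, the widest gap of the 59. This gap contains the full-length ratio for which miR-191 was chosen, so a high place was to be expected from the choice. The median gap was 0.11 and the lowest -2.48. In index 11, where 38 miRNAs could be compared, the gap of miR-191 was 0.01 against a median of -0.14, and index 3 could not be compared because FCx had no 17 nt alignment.

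**Figure D5:**
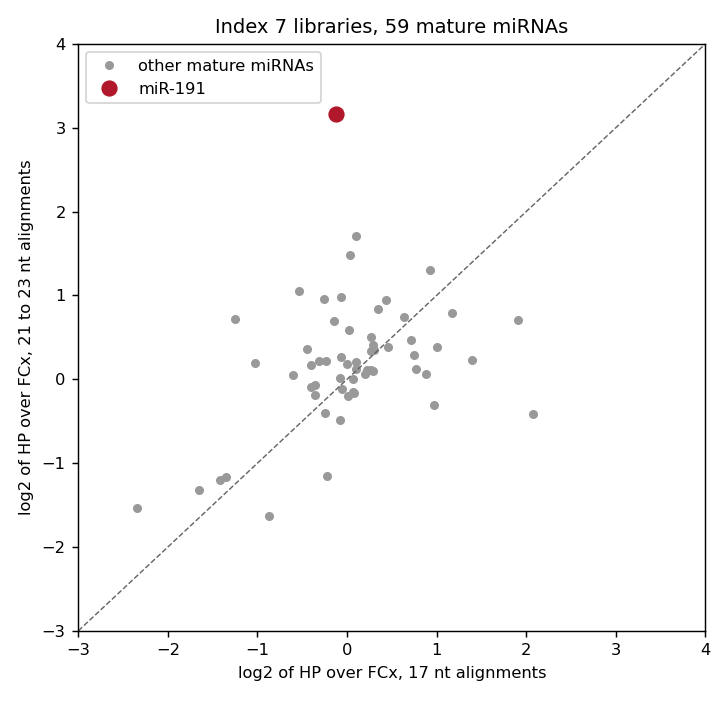
Log2 ratio of HP over FCx in the index 7 libraries for alignments of 17 nt (x axis) and of 21 to 23 nt (y axis), with 1 point for each of 59 mature miRNAs and a dashed line where both are equal. MiR-191 lies 3.29 above the line, the farthest of all, and the median miRNA lies 0.11 above it.

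The miRNAs whose levels across the 6 libraries were most like those of the members were named by Pearson's r of log2 CPM, among 138 other abundant miRNAs. The points share 2 RNA pools, 3 indexes and the library depth, and the values are a description. For miR-191 these were miR-146b (r = 0.949), miR-148b (0.793), miR-129-3p (0.773), miR-382* (0.739) and miR-27a (0.720), against a median of 0.116. MiR-146b was at 603, 267 and 472 CPM in FCx and at 424, 669 and 447 CPM in HP, the order of miR-191 with a narrower span. For miR-425 they were miR-323-3p (0.938), miR-27a (0.851), miR-138 (0.784), miR-29a (0.765) and miR-9 (0.760), against a median of -0.14. MiR-191 and miR-425 themselves had r = 0.550, and miR-191 and its own star arm had r = 0.157.

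Other miRNAs that are commonly used as references were set beside the members, from a list of 8 of which 7 were listed in the count files and miR-106a was not. The highest over the lowest of the 6 libraries was 8.79 for miR-191 and 4.502 for miR-425. It was 1.52 for miR-25, 4.62 for miR-16, 5.03 for miR-423-5p, 6.49 for miR-93, 7.87 for miR-423-3p and 23.8 for miR-103. MiR-17 had no count in 2 FCx libraries. Over the 139 abundant miRNAs the median of this span was 5.86, and 89 had a narrower and 49 a wider span than miR-191.

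MiR-25, of the miR-106b/25 cluster, was thus the steadiest of the listed references, at 848, 560 and 559 CPM in FCx and 578, 596 and 620 CPM in HP. MiR-103 was at 11137, 12073 and 1065 CPM in FCx and 10551, 23708 and 995 CPM in HP, low with index 11 in both regions. MiR-191 with index 11 was at 475 CPM in FCx, between its other libraries there. In HP it was at 438 CPM, level with the 436 CPM of index 3. In the comparison of the indexes 4 of the 7 listed references were called (miR-16, miR-93, miR-103 and miR-423-3p, adjusted p from 8.82e-18 to 3.90e-04, edgeR's quasi-likelihood test), beside 61.3% of all miRNAs. In the comparison of the regions 0 of the 7 were called (0.464% of all miRNAs), and with the index as a block 2 were (17.9% of all miRNAs), miR-16 higher in HP (log2 ratio 0.77, adjusted p = 0.0423) and miR-423-5p lower (-1.03, adjusted p = 0.00287).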

How the data were processed

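Small RNA of mouse FCx and HP was measured by miRNA-Seq. The authors deposited raw counts, whole reads per mature miRNA (miRBase version 11), aligned with Bowtie with up to 2 mismatches after index sorting and trimming, and not normalized. Genome alignments (NCBIM37) are 1 position per read, and their score, as deposited by the authors, was not used. The methods name the removal of reads under 14 nt, although such alignments are present.

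Both runs of a library were summed. The pooled-lane files labelled HP carry the abbreviation of FCx in their names, and the labels were followed. Over 138 abundant miRNAs without the members, these lanes had r of 0.986 to 0.997 with the individual HP lane of their index and 0.922 to 0.942 with that of FCx. The members, lists and tests were chosen with earlier results of these data known. The comparisons used edgeR 4.0.16 in R 4.3.3, with DESeq2 1.42.0 as an alternative, a filter of 2 counts, TMM normalization and Benjamini-Hochberg adjustment over 431 miRNAs. Adjusted p-values come from edgeR unless DESeq2 is named. The fits were tested on simulated data. The replicate block was used because same-index libraries deviated together from their region means (r of 0.796 to 0.854 over 431 miRNAs). These r used log2 CPM with a prior count of 2. For different indexes r was -0.618 to -0.226. Deviations from a mean cancel out within a region, so these negative values follow in part from the positive ones.

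Named were the members, their star arms, the reference list, the 5 miRNAs with the highest correlation with each member, and the miRNAs with the index 7 order. Shares have Wilson intervals, single CPM exact binomial intervals, and ratios of counts exact conditional intervals. Sequences came from RefSeq (GRCm38.p6 table), and all 4 arms matched. Positions were found by exact match in NCBIM37. The analysis of 17 nt alignments was chosen after seeing the data. Python 3.11.15, pandas 2.3.3, numpy 2.4.6, scipy 1.17.1 and matplotlib 3.10.9 were used.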

Additional observations from a re-analysis of the deposited data

Results flagged for a closer look

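MiR-191 moved in opposite directions with the index in FCx and HP. Index 7 gave 0.267 times the level of index 3 in FCx and 3.69 times in HP, and 0.386 times the level of index 11 in FCx and 3.68 times in HP. Both runs of each library showed this order. It is the pattern for which miR-191 was picked, and the difference between the regions was not tested.

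MiR-425 had a like order in 1 pair of indexes. Index 7 gave 0.781 times the level of index 11 in FCx and 1.29 times in HP, in both runs, from 14 against 8 counts in FCx and 114 against 72 in HP. Both intervals include 1, and the difference was not tested.

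Alignments of 17 nt on the miR-191 arm, which no comparison of the counts used as such, numbered 201 over the 6 libraries. With index 7 they were at 19.2 per 1000000 miRNA counts in FCx and 17.6 in HP, where the full-length alignments were at 181 and 1601, the values that chose miR-191. Reads of this length have 625 genome sites with 2 mismatches, so their source cannot be told apart.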

How the results depend on the processing

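With 3 libraries of 1 RNA pool per region, p-values cover technical spread only. FCx held 24 counts of miR-425, which limits every value of it there. The number of miRNAs called between the regions, 2, was 12 with DESeq2's test, 8 without a filter and 0 with the pooled lanes only. Leaving out 1 library gave 0 to 7, with 7 without FCx index 11 or HP index 7 and 0 without HP index 3 or 11. The replicate block gave 77 calls, 56 with library totals and 41 with DESeq2's test (an alternative chosen after seeing the data). It changed, of the cluster's miRNAs tested, the call of miR-425* alone (log2 1.79, and 1.81 with library totals), which had counts in FCx with index 7 only. The number of calls between the indexes stayed within 210 to 269, and was 210 to 255 when 1 library was left out.

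Without 1 library, the log2 ratio of HP over FCx was 0.40 to 1.59 for miR-191, 0.50 to 1.36 for miR-425, -0.71 to 2.32 for miR-191* and 0.10 to 8.35 for miR-425*. That of miR-191* turned to -0.029 with the individual lanes only, -0.11 without FCx index 3, -0.07 without FCx index 11 and -0.71 without HP index 7. The log2 ratio of index 7 over index 3 of miR-425 was 1.53 to 1.85 without 1 library, 1.74 with DESeq2's test and 1.87 with the pooled lanes only, and the last 2 were no longer called. The star share, HP minus FCx in percentage points, was -1.72 to 0.43 for miR-191 and 13.6 to 43.6 for miR-425 without 1 library. The share at the annotated 5′ end, HP minus FCx, was 0.770 to 2.49 for miR-191 and -3.65 to -0.877 for miR-425 without 1 library, and -0.482 for miR-191 with the pooled lanes only. MiRNAs with the index 7 order of miR-191, 7 of 139, were 0 at a mean of 1000 CPM and 11 with the individual lanes only. The index 7 ratio of HP to FCx of miR-191, 8.79, was 0.916 over 17 nt alignments and 10.8 per 1000000 genome alignments. Those of indexes 3 and 11, 0.634 and 0.921, were 1.06 and 1.74 per 1000000 genome alignments. The cause of these changes was not tested.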
